A study of Mus musculus with 21 samples.

Results

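The collagen, laminin and integrin genes were taken as all gene symbols of the form Col, number, a, number, or Lama, Lamb or Lamc with a number, or Itga or Itgb with a number or a single letter. Of the 23412 gene symbols counted, 80 matched, which were 44 collagen genes, 11 laminin genes and 25 integrin genes. RNA was sequenced from v6.5 mouse embryonic stem cells (mESCs, a male line) in 7 conditions with 3 libraries each, 48 h after transfection of 50 nM siRNA. The question was how loss of the cohesin regulators PDS5A and PDS5B, alone or with depletion of a STAG subunit of cohesin, changes gene expression. WT mESCs received the transfection control siGLO or siPds5b, Pds5b-/- mESCs received siGLO, and Pds5a-/- mESCs received siGLO, siPds5b, siStag1 or siStag2. The sample labels call the knockout lines Pds5a-KO and Pds5b-KO. Pds5a-/- siPds5b is called dual depletion here. By the study's methods, each knockout genotype was a single CRISPR clone, so an effect of the clone cannot be told apart from an effect of the gene. The study's supplement calls its read count replicates biological, and the labels give a replicate number alone. P-values therefore measure the spread between libraries within conditions, estimated in 1 fit over all 7 conditions, and not a spread between clones.

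Laminins are secreted trimers of an alpha, a beta and a gamma chain that polymerize on the cell surface and seed the basement membrane, and collagen IV forms the second network of that sheet. Fibrillar collagens build tissue fibrils, collagen VI builds beaded microfibrils, and several other collagens decorate fibrils or span the plasma membrane. Integrins are heterodimers of an alpha and a beta chain that bind these matrix proteins and connect them to actin. In the early mouse embryo the basement membrane is laid down mainly by extraembryonic endoderm, and naive mESCs also make laminin and adhere to matrix through integrins that contain the beta chain encoded by Itgb1.

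The promoters of Col4a1 and Col4a2, the chains of the most widespread collagen IV, are shown because both genes lie head to head on chromosome 8 and both were above WT siGLO in the knockout libraries described below. In GENCODE M21 (GRCm38, which is mm10), Col4a1 is on the minus strand at chr8:11198423-11312826 and Col4a2 is on the plus strand at chr8:11312805-11449287. The RefSeq windows from 250 bases before to 50 bases after each start (GRCm38.p6) are chr8:11312777-11313076 on the minus strand for Col4a1 and chr8:11312555-11312854 on the plus strand for Col4a2, and they share 78 bases, which are in capitals on each strand.
Col4a1: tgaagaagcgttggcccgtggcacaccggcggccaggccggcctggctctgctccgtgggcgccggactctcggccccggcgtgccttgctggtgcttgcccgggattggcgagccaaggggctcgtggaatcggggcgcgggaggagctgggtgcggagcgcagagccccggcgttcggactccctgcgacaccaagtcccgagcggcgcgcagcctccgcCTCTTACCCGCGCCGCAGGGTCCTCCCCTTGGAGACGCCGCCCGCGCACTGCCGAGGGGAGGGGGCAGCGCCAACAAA
Col4a2: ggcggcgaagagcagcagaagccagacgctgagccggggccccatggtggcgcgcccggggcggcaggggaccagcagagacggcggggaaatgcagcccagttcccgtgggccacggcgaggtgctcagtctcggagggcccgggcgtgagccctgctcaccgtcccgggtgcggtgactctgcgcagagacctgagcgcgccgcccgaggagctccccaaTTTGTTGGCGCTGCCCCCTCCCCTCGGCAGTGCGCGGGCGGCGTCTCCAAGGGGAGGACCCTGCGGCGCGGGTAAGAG
Col6a1 and Col6a2, chains of collagen VI, are neighbours on the minus strand of chromosome 10, at chr10:76708792-76726168 and chr10:76595762-76623630, with 85161 bases between them. Their windows (chr10:76725995-76726294 and chr10:76623581-76623880) are shown because both genes rose, with a GGGCGG match on either strand (the GC box) in capitals.
Col6a1: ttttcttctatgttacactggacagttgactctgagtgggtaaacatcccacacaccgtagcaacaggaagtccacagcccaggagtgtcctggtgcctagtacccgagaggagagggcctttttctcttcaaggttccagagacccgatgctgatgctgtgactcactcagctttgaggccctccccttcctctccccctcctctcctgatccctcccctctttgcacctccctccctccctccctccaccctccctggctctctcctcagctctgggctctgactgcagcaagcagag
Col6a2: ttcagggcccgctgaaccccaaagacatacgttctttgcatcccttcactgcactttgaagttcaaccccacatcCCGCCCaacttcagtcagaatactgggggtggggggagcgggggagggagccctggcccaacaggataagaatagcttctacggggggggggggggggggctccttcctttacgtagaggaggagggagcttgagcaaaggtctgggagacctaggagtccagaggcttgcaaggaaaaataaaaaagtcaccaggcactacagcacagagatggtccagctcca
The Col4a1 and Col4a2 windows held 74% and 73.7% G or C with 1 and 3 GC boxes, and the Col6a1 and Col6a2 windows held 57.3% and 56.7% with 0 and 1. RefSeq windows of 57 of the 80 members (63 windows) were used. The other members are not in the member shares below, and their absence does not mean that RefSeq lacks a window for them. GGGCGG was in 55.6% of the member windows and in 35.7% of all 32851 windows, CCAAT was in 27% and 37.4%, and TATAAA was in 7.94% and 13.6%, on both strands. These are letter matches only.

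The total count was between 17311090 and 23989198 per library, and the members took 0.293 to 0.482% of it. Pds5b fell in the Pds5b-/- line (from 2354, 2019 and 2285 to 278, 312 and 238 normalized counts in libraries 1, 2 and 3) and after siPds5b in WT and Pds5a-/- cells (0.349-fold and 0.382-fold of the matched siGLO level). Stag1 and Stag2 were at 0.237-fold and 0.269-fold of Pds5a-/- siGLO after their own siRNA. Pds5a itself did not pass the test in Pds5a-/- siGLO (log2 fold change -0.24 ± 0.089, edgeR adjusted p = 0.0415), and a count over the whole gene is no check of an edit confined to part of it. Here and below, the value after ± beside a log2 fold change or log2 difference is a standard error (SE) derived from the edgeR test statistic. Markers of the labelled cell type, mESCs, were abundant in all libraries: the summed level of 8 markers such as Pou5f1 and Sox2 was 137094 to 147538 normalized counts in WT siGLO, 110386 to 124891 in Pds5a-/- siGLO, 105810 to 121686 in Pds5b-/- siGLO, 95542 to 106221 in Pds5a-/- siPds5b, 105700 to 112964 in Pds5a-/- siStag1 and 82882 to 97975 in Pds5a-/- siStag2. Of the 8, 4 passed lower than WT siGLO in each knockout line, 5 in Pds5a-/- siPds5b, 4 in Pds5a-/- siStag1 and 7 in Pds5a-/- siStag2, and 1 passed higher, in Pds5b-/- siGLO. All marker counts here stand beside the share of all genes tested that passed in either direction. That share was 17.8% in Pds5a-/- siGLO, 18.2% in Pds5b-/- siGLO, 32% in Pds5a-/- siPds5b, 20% in Pds5a-/- siStag1 and 30.1% in Pds5a-/- siStag2. The libraries numbered 1 stood apart. The summed level of 9 primitive endoderm markers was highest in library 1 in 7 of 7 conditions, and none of the 9 passed the test against WT siGLO in any condition. That sum was 1414 to 2377 normalized counts in WT siGLO, 1421 to 3386 in Pds5a-/- siGLO, 2365 to 5078 in Pds5b-/- siGLO, 1471 to 2952 in Pds5a-/- siPds5b and 1137 to 1286 in Pds5a-/- siStag2. Parietal endoderm, which secretes a thick basement membrane, was followed by 5 markers (Thbd, Plat, Snai1, Fst and Srgn). Of these, 3 passed higher than WT siGLO in Pds5a-/- siGLO, 1 in Pds5b-/- siGLO, and 2 each in Pds5a-/- siPds5b, siStag1 and siStag2, and 0 passed lower. These were 60%, 20%, 40%, 40% and 40% of the list, near the share of all genes in Pds5b-/- siGLO. Thbd and Plat passed after dual depletion (log2 fold changes 2.52 and 1.96, edgeR adjusted p = 8.88e-06 and 5.23e-08), and Thbd held 12, 4 and 5 reads in WT siGLO. Fst went the other way without passing. Its mean was 187 normalized counts in WT siGLO (SD 83.6), 132 in Pds5a-/- siGLO, 122 in Pds5b-/- siGLO and 152 after dual depletion. It was 124 in Pds5a-/- siStag1 and 86.5 in Pds5a-/- siStag2. The mean of Srgn was 162 in WT siGLO, 91.5 in Pds5a-/- siStag2 and 189 to 255 in the other knockout conditions. The parietal endoderm sum was 404 to 501 normalized counts in WT siGLO, 442 to 732 in Pds5a-/- siGLO, 429.7 to 623 in Pds5b-/- siGLO, 522 to 767 in Pds5a-/- siPds5b, 365 to 667 in Pds5a-/- siStag1 and 359 to 390.4 in Pds5a-/- siStag2. A sum of 9 fibroblast markers was 369 to 471 in WT siGLO and 341 to 743 in Pds5a-/- siGLO. It was 377 to 405 in Pds5b-/- siGLO and 441 to 626 in Pds5a-/- siPds5b. Of the 6 that could be tested, 1 passed higher and 0 lower in Pds5a-/- siGLO, and 0 higher and 2 lower in Pds5b-/- siGLO. In each of Pds5a-/- siPds5b, siStag1 and siStag2, 1 passed higher and 1 lower. The share called was 16.7% of those tested in Pds5a-/- siGLO and 33.3% in Pds5b-/- siGLO, Pds5a-/- siPds5b, siStag1 and siStag2. This was near the share of all genes in Pds5a-/- siGLO, siPds5b and siStag2. A sum of 5 endothelial markers, of which 3 could be tested, was 217 to 292 in WT siGLO and 313 to 495 in Pds5a-/- siPds5b. Of the 3, 1 passed higher in Pds5a-/- siPds5b, and 1 passed lower in each of Pds5a-/- siGLO, siStag1 and siStag2. In Pds5b-/- siGLO 0 passed. The part of these markers in the results was not tested. Lama1, Lamb1 and Lamc1 were also highest in the libraries numbered 1 in 7 of 7 conditions, and Col4a1 and Col4a2 in 6. Other members went the other way, with library 1 lowest in 7 conditions for Col4a5, in 6 for Lamb3 and in 5 for Lama5. Values with all 7 libraries numbered 1 left out are given below for some of the calls that changed, not for all. In RNA from whole cultures, fewer cells of a type and less RNA per cell cannot be told apart. Normalized counts are counts scaled to a common library size of 19816922, and libraries 1, 2 and 3 are given in this order throughout.

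In WT siGLO cells the most expressed members were genes of laminin chains, of integrin chains and of basement membrane collagens. Per kb of exon, Itgb1, which encodes the common beta chain, was highest at 2248 ± 93.7 normalized counts per kb (SD, n = 3), followed by Lamc1, the common gamma chain, at 1298 ± 45.2. Col18a1, a basement membrane collagen that is the source of endostatin, came next at 724 ± 34.2, and Lama5, the alpha chain of a laminin used to culture stem cells, followed at 542 ± 56.7, which lies within its spread of Itga3 at 508 ± 11.7. Lamb1 (446 ± 34.1) and Col4a1 (405 ± 64.3) did not differ beyond their spread. Itgb5, Itga6, Itga5 and Lama1 lay between 363 ± 54.5 and 312 ± 65.0, with overlapping spreads, and Col4a2 was at 232 ± 39.0. Itga6 and Itga3 encode laminin-binding alpha chains, and Itga5 encodes the alpha chain of the fibronectin receptor. The collagen VI genes lay lower, from rank 36 of 66 (Col6a5) to rank 65 (Col6a6), with Col6a1 at 5.17 ± 2.62 and Col6a2 at 2.00 ± 0.825 normalized counts per kb. A test was possible for 66 members, with 35 of 44 collagen genes, 10 of 11 laminin genes and 21 of 25 integrin genes. The other 14 had at most 19 reads in any library and were Col4a3, Col4a4, Col6a3, Col9a1, Col10a1, Col15a1, Col19a1, Col24a1, Col28a1, Lama2, Itga2, Itgad, Itgax and Itgb6.

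More collagen and laminin genes rose than fell in both knockout lines and after dual depletion, and after dual depletion as many integrin genes fell as rose. In Pds5a-/- siGLO, 17 of 66 members passed the edgeR test against WT siGLO at an adjusted p under 0.01, beside 17.8% of all 14963 genes tested. Of these, 15 were higher (9.63% of all genes) and 2 were lower (8.12%). In Pds5b-/- siGLO, 16 passed (18.2% of all genes), 13 higher (9.64%) and 3 lower (8.57%). In Pds5a-/- siPds5b, 32 passed (32% of all genes), 26 higher (17.4%) and 6 lower (14.6%). In Pds5a-/- siStag1 19 passed (20% of all genes), 16 higher (10.6%) and 3 lower (9.37%), and in Pds5a-/- siStag2 26 passed (30.1%), 23 higher (16.2%) and 3 lower (13.9%). In each of these 5 conditions the share of members called higher was above that of all genes, and the share called lower was below it. The median log2 fold change of the 66 members was 0.44 in Pds5a-/- siGLO, 0.24 in Pds5b-/- siGLO, 0.60 in Pds5a-/- siPds5b, 0.46 in Pds5a-/- siStag1 and 0.57 in Pds5a-/- siStag2, where that of all genes tested was between -0.0029 and 0.0021. All of these comparisons share the WT siGLO libraries. The count in Pds5a-/- siGLO was 11 without WT siGLO library 3 and 26 without the libraries numbered 1, and the count in Pds5a-/- siStag1 was 12 without WT siGLO library 3 and 10 without its own library 3.

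Among collagen genes, 12 of 35 rose and 1 fell in Pds5a-/- siGLO, 10 rose and 0 fell in Pds5b-/- siGLO, and 16 rose and 1 fell in Pds5a-/- siPds5b. Among laminin genes the numbers were 2 of 10 higher and 0 lower, 2 higher and 1 lower, and 5 higher and 0 lower. Among integrin genes they were 1 of 21 higher and 1 lower, 1 higher and 2 lower, and 5 higher and 5 lower. The share called was 37.1% of collagen, 20% of laminin and 9.52% of integrin genes in Pds5a-/- siGLO, 28.6%, 30% and 14.3% in Pds5b-/- siGLO, and 48.6%, 50% and 47.6% in Pds5a-/- siPds5b. Over all comparisons with WT siGLO, 41 members (62.1%) passed in at least 1, beside 48.7% of all genes tested, and 25 in none. In all 4 Pds5a-/- conditions 16 members (24.2%) passed, beside 10.9% of all genes. Of the 16, 8 also passed in Pds5b-/- siGLO (12.1% of members, beside 5.61% of all genes): Col4a2, Col6a2, Col8a2, Col9a3, Col18a1, Col25a1, Col27a1 and Lamb1. The other 8 were Col5a3, Col6a1, Col11a1, Col13a1, Col16a1, Col23a1, Lama4 and Itgal. A single member, Lama3, passed lower in one condition and higher in another.

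**Figure D1:**
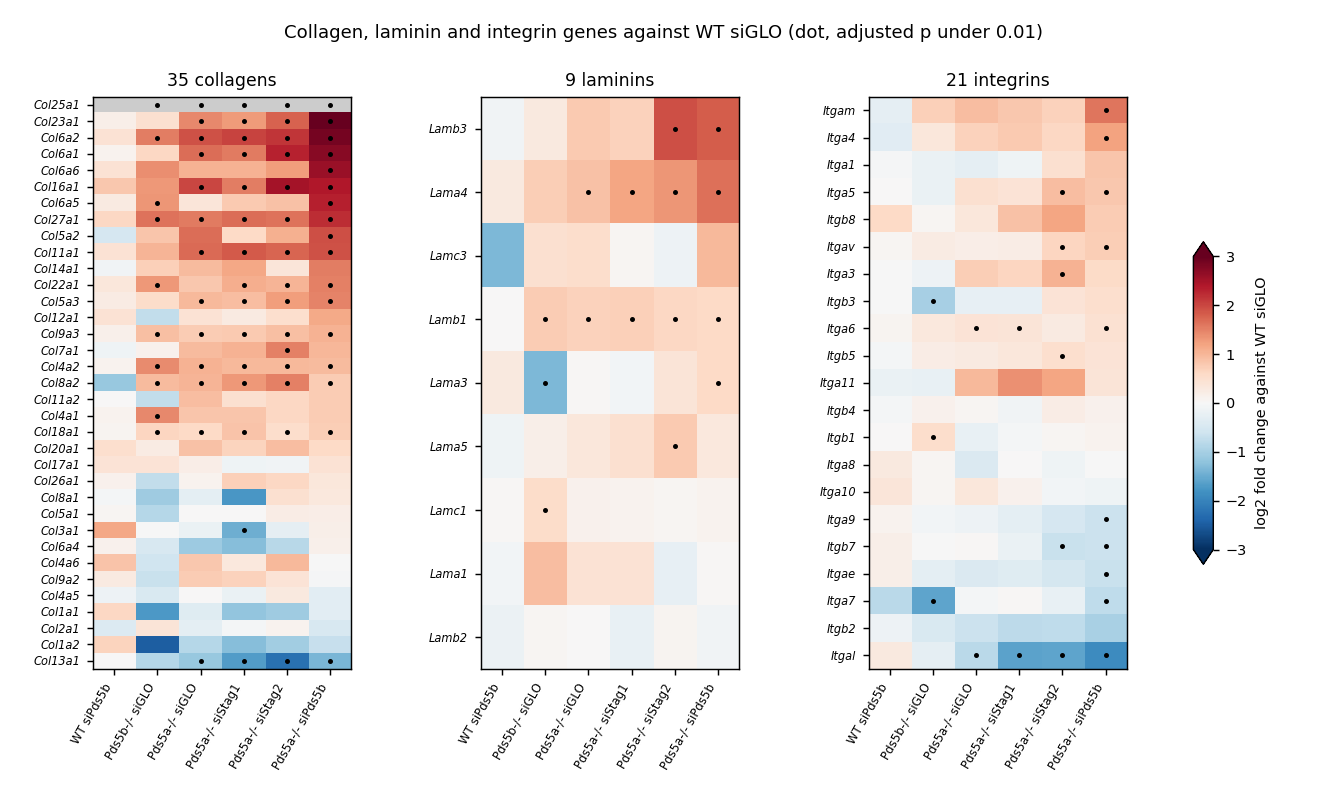
Log2 fold change against WT siGLO of 65 of the 66 members tested (colour, from -3 to 3), with a row per gene and a column per condition, ordered within each family by the value in Pds5a-/- siPds5b. Dots mark an edgeR adjusted p under 0.01. Dots fill most of the upper collagen rows in the 4 Pds5a-/- columns, the WT siPds5b column has none, and Col25a1 is drawn grey because its WT siGLO libraries held at most 3 reads.

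Of 4 tested collagen IV genes, 1 rose in Pds5a-/- siGLO (Col4a2), 2 in Pds5b-/- siGLO (Col4a1 and Col4a2) and 1 in Pds5a-/- siPds5b (Col4a2), and 0 fell. Col4a5 and Col4a6, which encode less widespread chains, passed in none of these, with log2 fold changes of 0.022, -0.47 and -0.32 for Col4a5 and 0.80, -0.59 and -0.013 for Col4a6. Col4a1 was at 3542, 2597 and 2923 normalized counts in WT siGLO, 6654, 4259 and 5189 in Pds5a-/- siGLO, 10838, 7211 and 6764 in Pds5b-/- siGLO and 6577, 4137 and 4674 in Pds5a-/- siPds5b. Col4a2 was at 1829, 1337 and 1445 in WT siGLO, 3322, 2906 and 3281 in Pds5a-/- siGLO, 5029.9, 3779.6 and 3486 in Pds5b-/- siGLO and 3243, 2683 and 3055 in Pds5a-/- siPds5b. All libraries of these 3 conditions lay above all WT siGLO libraries for both genes. Col4a2 passed in Pds5a-/- siGLO (log2 fold change 1.04 ± 0.17, edgeR adjusted p = 0.000164), in Pds5b-/- siGLO (log2 fold change 1.41 ± 0.17, edgeR adjusted p = 8.26e-06) and in Pds5a-/- siPds5b (log2 fold change 0.96 ± 0.17, edgeR adjusted p = 0.000161). Col4a1 passed in Pds5b-/- siGLO (log2 fold change 1.45 ± 0.25, edgeR adjusted p = 0.000583). It did not pass in Pds5a-/- siGLO, at 0.83 ± 0.25 on the log2 scale (edgeR adjusted p = 0.0226), or in Pds5a-/- siPds5b, at 0.76 ± 0.25 (edgeR adjusted p = 0.0225). With the libraries numbered 1 left out, which had the highest Col4a1 level in 6 of 7 conditions, the adjusted p was 7.28e-07 and 2.66e-06. Col18a1 rose from 4827, 5303 and 5119 to 6875, 7952 and 8116 in Pds5a-/- siGLO (log2 fold change 0.59 ± 0.076, edgeR adjusted p = 3.27e-06), 8119.6, 8031 and 7714 in Pds5b-/- siGLO (log2 fold change 0.65 ± 0.076, edgeR adjusted p = 9.22e-07) and 7680.2, 8502 and 9207 in Pds5a-/- siPds5b (log2 fold change 0.74 ± 0.076, edgeR adjusted p = 4.12e-08), with no overlap with WT siGLO. Its library 1 was highest in 3 of 7 conditions. The calls of Col4a2 and Col18a1 in these 3 conditions and that of Col4a1 in Pds5b-/- siGLO held with each library left out in turn.

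The chains of the early embryonic laminin did not move as 1 unit. Lama1, its alpha chain, was at 3729, 2537 and 2784 normalized counts in WT siGLO, 6286, 2976 and 3036 in Pds5a-/- siGLO, 8452, 4834 and 3890.4 in Pds5b-/- siGLO, 5034, 1911 and 2266 in Pds5a-/- siPds5b, 6428, 2869 and 2926 in Pds5a-/- siStag1 and 2741, 2529 and 2377 in Pds5a-/- siStag2. Library 1 was the highest of the 3 in every condition, by more than the difference between libraries 2 and 3, and Lama1 passed in no comparison with WT siGLO. Without the libraries numbered 1, Lama1 was lower in Pds5a-/- siPds5b than in WT siGLO (log2 fold change -0.35, edgeR adjusted p = 0.00477, against 0.027 and 0.969 with all libraries) and higher in Pds5b-/- siGLO (log2 fold change 0.71, edgeR adjusted p = 6.04e-06, against 0.92 and 0.121). Lamb1, the beta chain, rose from 4804, 4177 and 4274 to 7885, 6737 and 6807 in Pds5a-/- siGLO (log2 fold change 0.69 ± 0.11, edgeR adjusted p = 4.02e-05), 9127, 6959.9 and 6336 in Pds5b-/- siGLO (log2 fold change 0.76 ± 0.11, edgeR adjusted p = 1.43e-05) and 7343, 6115 and 6674 in Pds5a-/- siPds5b (log2 fold change 0.60 ± 0.11, edgeR adjusted p = 8.4e-05). No Lamb1 library of the knockout conditions overlapped WT siGLO, and the calls held with each library left out. Lamc1, the gamma chain, was at 11135, 10395 and 10675 in WT siGLO, 13173, 10614 and 11712 in Pds5a-/- siGLO, 19289, 14737 and 13051 in Pds5b-/- siGLO and 11882, 10899.6 and 11771 in Pds5a-/- siPds5b. It rose in Pds5b-/- siGLO (log2 fold change 0.55 ± 0.11, edgeR adjusted p = 0.000684) and did not pass in Pds5a-/- siGLO (log2 fold change 0.14 ± 0.11, edgeR adjusted p = 0.371) or Pds5a-/- siPds5b (log2 fold change 0.10 ± 0.11, edgeR adjusted p = 0.478). Lamb1 and Lamc1, like the primitive endoderm marker sum, were highest in library 1 in 7 of 7 conditions. The part of the primitive and parietal endoderm marker shifts in the laminin and collagen IV values was not tested.

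**Figure D2:**
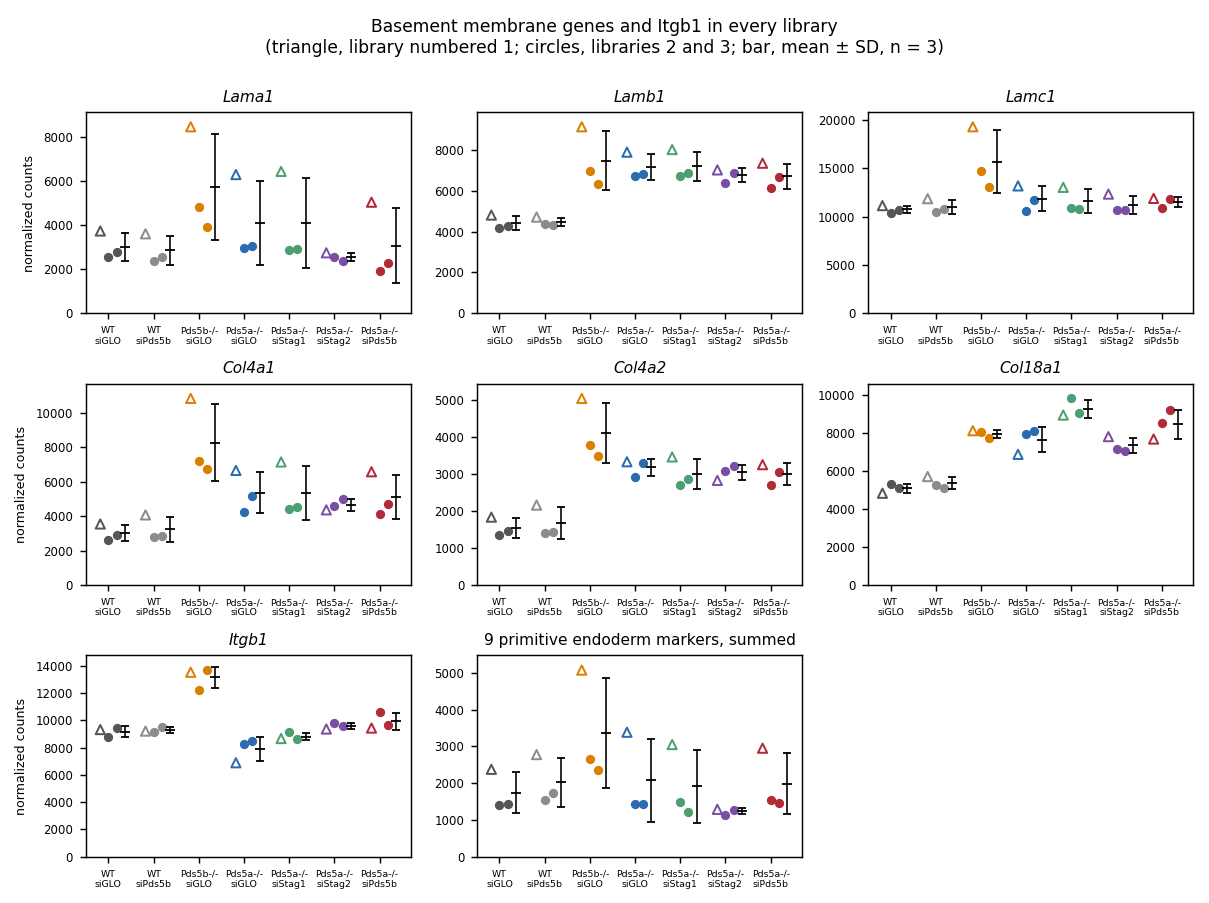
Normalized counts (linear axis) of 6 basement membrane genes, of Itgb1 and of the sum of 9 primitive endoderm markers in all libraries of the 7 conditions. The triangle is library 1, circles are libraries 2 and 3, and bars are mean ± SD (n = 3). The triangle is the highest point in 7 of 7 conditions for Lama1, Lamb1, Lamc1 and the marker sum, and in 0 of 7 for Itgb1.

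Col4a1, Col4a2 and Itgb1 lie on chromosome 8, whose genes as a group differed between the lines. The median log2 fold change of the 779 tested genes of chromosome 8 was -0.19 in Pds5a-/- siGLO, 0.29 in Pds5b-/- siGLO and -0.23 in Pds5a-/- siPds5b, while no other chromosome had a median beyond 0.1 in either direction in any comparison. Itgb1 was at 9318, 8740.3 and 9462 normalized counts in WT siGLO, 6883, 8225 and 8515 in Pds5a-/- siGLO, 13522, 12228 and 13679.6 in Pds5b-/- siGLO and 9429, 10633 and 9685 in Pds5a-/- siPds5b. The Pds5b-/- libraries lay above all others, and the Pds5a-/- siGLO libraries lay below WT siGLO. Itgb1 rose in Pds5b-/- siGLO (log2 fold change 0.52 ± 0.073, edgeR adjusted p = 1.04e-05), and in Pds5a-/- siGLO its log2 fold change was -0.22 ± 0.073 (edgeR adjusted p = 0.0249). It passed there without Pds5a-/- siGLO library 3 (edgeR adjusted p = 0.00907). Set against the chromosome 8 median, its value was 0.22 in Pds5b-/- siGLO, where 26.3% of the tested chromosome 8 genes were higher, and -0.028 in Pds5a-/- siGLO, where 53.9% were. For Col4a1 and Col4a2 the values against that median were 1.16 and 1.12 in Pds5b-/- siGLO and 1.02 and 1.23 in Pds5a-/- siGLO, with at most 4.75% of chromosome 8 genes higher. The Itgb1 difference in the Pds5b-/- line and the shift of its chromosome cannot be told apart with this measure, and the part of the shift in the collagen IV values was not tested.

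**Figure D3:**
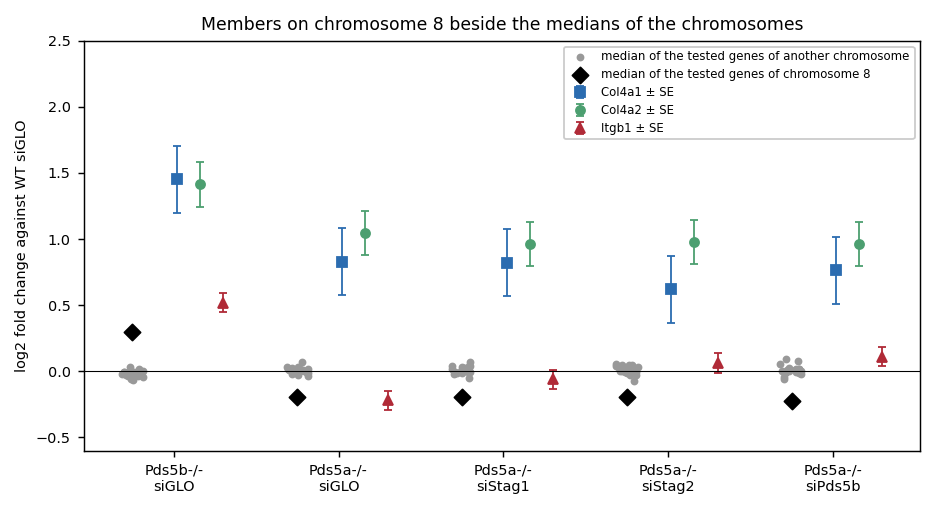
Log2 fold change against WT siGLO (vertical axis) in 5 conditions (horizontal axis), with the median of the tested genes of each chromosome as points and Col4a1, Col4a2 and Itgb1 with their SE. The chromosome 8 median (diamond) lies above the others in Pds5b-/- siGLO at 0.29 and below them in all 4 Pds5a-/- conditions at -0.23 to -0.19, and Col4a1 and Col4a2 lie above the diamond in each.

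Of 10 tested fibrillar collagen genes, 3 rose in Pds5a-/- siGLO (Col27a1, Col11a1 and Col5a3), 1 in Pds5b-/- siGLO (Col27a1) and 4 in Pds5a-/- siPds5b (these 3 and Col5a2), and 0 fell. Col27a1, a fibrillar collagen of cartilage, was at 41.2, 62.0 and 56.2 normalized counts in WT siGLO, 168, 142 and 154 in Pds5a-/- siGLO, 149, 180.5 and 163 in Pds5b-/- siGLO and 226, 240.5 and 264 in Pds5a-/- siPds5b. Each condition lay above WT siGLO without overlap, and Pds5a-/- siPds5b lay above both knockout lines. It rose in Pds5a-/- siGLO (log2 fold change 1.55 ± 0.17, edgeR adjusted p = 2.46e-07), Pds5b-/- siGLO (log2 fold change 1.63 ± 0.16, edgeR adjusted p = 9.02e-08) and Pds5a-/- siPds5b (log2 fold change 2.20 ± 0.16, edgeR adjusted p = 1.74e-10). Col11a1, a minor chain that sets fibril diameter, rose from 35.2, 34.9 and 46.3 to 71.1, 145 and 166 in Pds5a-/- siGLO (log2 fold change 1.70 ± 0.32, edgeR adjusted p = 0.000464) and 103, 189.7 and 147 in Pds5a-/- siPds5b (log2 fold change 1.90 ± 0.32, edgeR adjusted p = 6.7e-05), with 82.3, 65.8 and 89.3 in Pds5b-/- siGLO (log2 fold change 1.02 ± 0.34, edgeR adjusted p = 0.0252). All 3 conditions lay above WT siGLO. Col5a3, a minor chain of collagen V, rose from 77.3, 57.4 and 43.8 to 126, 102 and 125 in Pds5a-/- siGLO (log2 fold change 0.98 ± 0.21, edgeR adjusted p = 0.00102) and 152, 159.6 and 193 in Pds5a-/- siPds5b (log2 fold change 1.5 ± 0.21, edgeR adjusted p = 2.9e-06), with no overlap. In Pds5b-/- siGLO it was at 89.7, 84.7 and 89.3 (log2 fold change 0.56 ± 0.21, edgeR adjusted p = 0.0479). Col5a2 rose after dual depletion (log2 fold change 1.93, edgeR adjusted p = 0.00475), and Col3a1 fell in Pds5a-/- siStag1 (log2 fold change -1.48, edgeR adjusted p = 0.00752). Col5a1 and Col11a2, further chains of collagens V and XI, passed in none of these conditions, with log2 fold changes of 0.02, -0.85 and 0.21 for Col5a1 and 0.93, -0.74 and 0.77 for Col11a2, in the order Pds5a-/- siGLO, Pds5b-/- siGLO, dual depletion. Col1a1 and Col1a2, the chains of the main fibrillar collagen, had log2 fold changes of -1.73 and -2.47 in Pds5b-/- siGLO (edgeR adjusted p = 0.0374 and 0.0148) and -0.32 and -0.68 in Pds5a-/- siPds5b (edgeR adjusted p = 0.666 and 0.401). Without the libraries numbered 1, in which Col1a1 was lowest in 7 of 7 conditions, both passed in Pds5b-/- siGLO (edgeR adjusted p = 0.000335 and 0.00296). The call of Col5a3 in Pds5a-/- siGLO was lost without WT siGLO library 3 (edgeR adjusted p = 0.0136), that of Col5a2 without WT siGLO library 1 or 2 or Pds5a-/- siPds5b library 2 or 3 (edgeR adjusted p 0.0111 to 0.0263), and that of Col3a1 without WT siGLO library 2 or 3 or Pds5a-/- siStag1 library 1, 2 or 3 (edgeR adjusted p 0.0156 to 0.061).

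Of 5 tested collagen VI genes, 2 rose in Pds5a-/- siGLO, 2 in Pds5b-/- siGLO and 4 in Pds5a-/- siPds5b against WT siGLO, and 0 fell. Against Pds5a-/- siGLO, 2 of the 5 (Col6a2 and Col6a5) passed higher after dual depletion, and dual depletion was not tested against Pds5b-/- siGLO. Col6a1 was at 9.45, 30.4 and 28.1 normalized counts in WT siGLO, 43.7, 83.2 and 87.7 in Pds5a-/- siGLO, 25.3, 36.9 and 39.8 in Pds5b-/- siGLO and 123, 132 and 192 in Pds5a-/- siPds5b. Col6a2, whose product joins that of Col6a1 in the same trimer, was at 16.3, 23.7 and 9.92 in WT siGLO, 47.7, 58.0 and 77.1 in Pds5a-/- siGLO, 43.3, 40.9 and 57.3 in Pds5b-/- siGLO and 122, 107 and 129 in Pds5a-/- siPds5b. For both genes the dual depletion libraries lay above those of every other condition, except that a Col6a1 library of Pds5a-/- siStag2 at 131 lay within their range. Col6a1 rose in Pds5a-/- siGLO (log2 fold change 1.68 ± 0.36, edgeR adjusted p = 0.00106) and Pds5a-/- siPds5b (log2 fold change 2.73 ± 0.34, edgeR adjusted p = 1.12e-06) and was not called in Pds5b-/- siGLO (log2 fold change 0.61 ± 0.38, edgeR adjusted p = 0.232). Col6a2 rose in all 3 conditions, by 1.91 ± 0.27 in Pds5a-/- siGLO (edgeR adjusted p = 9.95e-06), 1.54 ± 0.27 in Pds5b-/- siGLO (edgeR adjusted p = 0.000174) and 2.87 ± 0.26 in Pds5a-/- siPds5b (edgeR adjusted p = 4.35e-09) on the log2 scale. Col6a5, an alternative alpha chain encoded on chromosome 9 beside Col6a6 and Col6a4, was at 82.5, 39.4 and 78.6 in WT siGLO, 115, 92.6 and 56.9 in Pds5a-/- siGLO, 193, 164 and 152 in Pds5b-/- siGLO and 401, 314 and 314 in Pds5a-/- siPds5b. It rose in Pds5b-/- siGLO (log2 fold change 1.32 ± 0.32, edgeR adjusted p = 0.00378) and Pds5a-/- siPds5b (log2 fold change 2.34 ± 0.31, edgeR adjusted p = 5.56e-06), and overlapped WT siGLO in Pds5a-/- siGLO (log2 fold change 0.37 ± 0.33, edgeR adjusted p = 0.438). Col6a6 rose after dual depletion (log2 fold change 2.58, edgeR adjusted p = 0.000491, and 0.0128 without the libraries numbered 1), and Col6a4 did not pass (log2 fold change 0.15, edgeR adjusted p = 0.787). The call of Col6a5 in Pds5b-/- siGLO was lost without WT siGLO library 2 or Pds5b-/- siGLO library 1 or 2 (edgeR adjusted p 0.0118 to 0.0211). The calls of Col6a1, Col6a2 and Col6a5 after dual depletion, and of Col6a1 and Col6a2 in Pds5a-/- siGLO, held with each library left out.

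Of 4 tested membrane-spanning collagen genes, 2 rose and 1 fell in Pds5a-/- siGLO, 1 rose and 0 fell in Pds5b-/- siGLO, and 2 rose and 1 fell in Pds5a-/- siPds5b. Of 7 tested fibril-associated collagen genes, 2, 2 and 3 rose in these conditions, and 0 fell. Col17a1, the membrane-spanning chain of hemidesmosomes, and Col12a1, which coats fibrils, passed in none of the 3, with log2 fold changes after dual depletion of 0.42 and 1.13 (edgeR adjusted p = 0.223 and 0.126). Col23a1, a membrane-spanning collagen, was at 10.3, 14.6 and 16.5 normalized counts in WT siGLO, 31.5, 32.7 and 48.2 in Pds5a-/- siGLO, 14.8, 19.9 and 23.3 in Pds5b-/- siGLO and 83.5, 134 and 145 in Pds5a-/- siPds5b. It rose in Pds5a-/- siGLO (log2 fold change 1.43 ± 0.31, edgeR adjusted p = 0.00108) and further after dual depletion (log2 fold change 3.11 ± 0.29, edgeR adjusted p = 6.59e-09), without overlap with WT siGLO. Col13a1, also membrane-spanning and known at the neuromuscular synapse, fell from 96.2, 89.0 and 85.2 to 37.6, 43.0 and 41.4 in Pds5a-/- siGLO (log2 fold change -1.14 ± 0.28, edgeR adjusted p = 0.00291) and 36.4, 30.1 and 36.9 in Pds5a-/- siPds5b (log2 fold change -1.38 ± 0.28, edgeR adjusted p = 0.000313). It was at 15.6, 26.4 and 15.3 in Pds5a-/- siStag2, the lowest condition (log2 fold change -2.25 ± 0.31, edgeR adjusted p = 3.42e-06). Among the related transmembrane genes, Col25a1 passed in all 4 Pds5a-/- conditions and in Pds5b-/- siGLO (edgeR adjusted p = 0.00955 in Pds5a-/- siGLO and 0.00329 in Pds5b-/- siGLO), and no fold is given because its WT siGLO libraries held at most 3 reads. Col16a1, which associates with fibrils, rose from 13.7, 16.9 and 14.1 to 23.4, 85.1 and 69.4 in Pds5a-/- siGLO (log2 fold change 2.00 ± 0.40, edgeR adjusted p = 0.000672) and 62.2, 74.6 and 101 in Pds5a-/- siPds5b (log2 fold change 2.41 ± 0.40, edgeR adjusted p = 3.65e-05). Its library 1 was the lowest of the 3 in Pds5a-/- siGLO but still above WT siGLO. Col9a3, a chain of the cartilage fibril coat, rose from 65.3, 62.0 and 52.9 to 98.5, 97.3 and 111 in Pds5a-/- siGLO (log2 fold change 0.77 ± 0.20, edgeR adjusted p = 0.0063), 84.4, 126 and 127 in Pds5b-/- siGLO (log2 fold change 0.91 ± 0.20, edgeR adjusted p = 0.00167) and 128, 108 and 133 in Pds5a-/- siPds5b (log2 fold change 1.03 ± 0.20, edgeR adjusted p = 0.000219).

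Col22a1, which is found at tissue junctions, was at 29.2, 22.5 and 22.3 normalized counts in WT siGLO, 50.7, 56.8 and 75.7 in Pds5b-/- siGLO (log2 fold change 1.30 ± 0.26, edgeR adjusted p = 0.000674) and 56.8, 63.2 and 91.7 in Pds5a-/- siPds5b (log2 fold change 1.5 ± 0.26, edgeR adjusted p = 5.91e-05), with 39.6, 40.2 and 50.1 in Pds5a-/- siGLO (log2 fold change 0.80 ± 0.27, edgeR adjusted p = 0.0286). All these libraries lay above WT siGLO. Col8a2, a short-chain collagen of the corneal endothelium, was at 33.5, 23.7 and 26.5 in WT siGLO and 14.3, 10.0 and 13.8 in WT siPds5b, and at 59.9, 63.6 and 46.3 in Pds5a-/- siGLO, 49.6, 48.9 and 63.1 in Pds5b-/- siGLO and 46.2, 44.6 and 52.8 in Pds5a-/- siPds5b. It was lower without overlap in WT siPds5b (log2 fold change -1.13 ± 0.26, edgeR adjusted p = 0.275) and higher in the 3 others, with log2 fold changes of 1.01, 0.94 and 0.77 (edgeR adjusted p = 0.000965, 0.00194 and 0.00586). Several of these calls were lost when a single library was left out. In Pds5a-/- siGLO, the call of Col9a3 was lost without any one of the 6 libraries (edgeR adjusted p 0.0117 to 0.0399) and that of Col13a1 without WT siGLO library 1 or Pds5a-/- siGLO library 1, 2 or 3 (edgeR adjusted p 0.0108 to 0.0122). There too it was lost for Col23a1 without Pds5a-/- siGLO library 3 (edgeR adjusted p = 0.0109) and for Col25a1 without WT siGLO library 1, 2 or 3 or Pds5a-/- siGLO library 2 or 3 (edgeR adjusted p 0.0106 to 0.0967). In Pds5b-/- siGLO, that of Col9a3 was lost without WT siGLO library 3 or Pds5b-/- siGLO library 2 (edgeR adjusted p 0.0121 to 0.0129), that of Col25a1 without WT siGLO library 2 or 3 or Pds5b-/- siGLO library 2 or 3 (edgeR adjusted p 0.0119 to 0.0165) and that of Col8a2 without WT siGLO library 2 or 3 or Pds5b-/- siGLO library 3 (edgeR adjusted p 0.0108 to 0.0123). After dual depletion, that of Col8a2 was lost without WT siGLO library 2 or 3 or Pds5a-/- siPds5b library 1, 2 or 3 (edgeR adjusted p 0.0106 to 0.0312), and the calls of Col23a1, Col13a1, Col16a1, Col9a3, Col22a1 and Col25a1 held with each library left out.

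**Figure D4:**
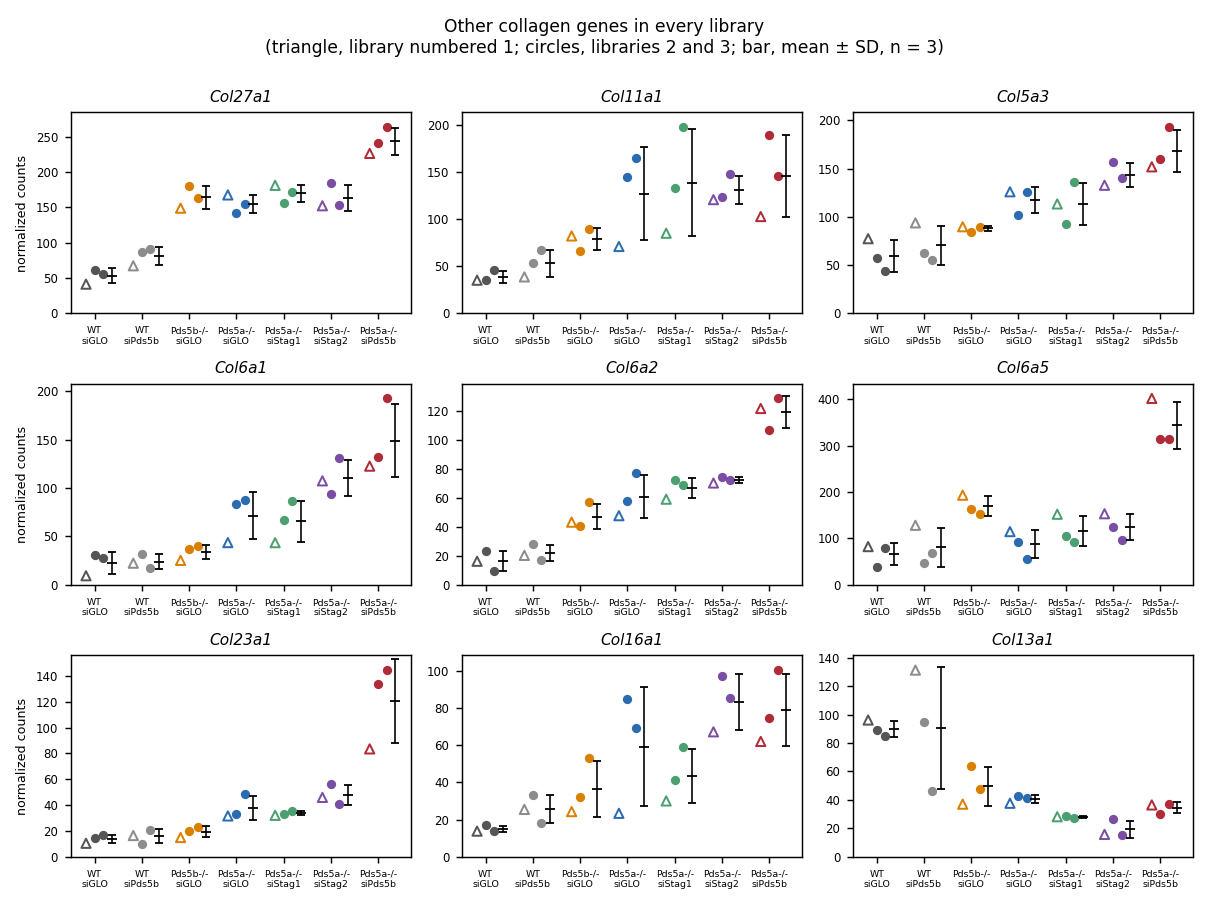
Normalized counts (linear axis) of 9 collagen genes in all libraries of the 7 conditions. The triangle is library 1, circles are libraries 2 and 3, and bars are mean ± SD (n = 3). Col27a1, Col6a2, Col6a5 and Col23a1 are highest in Pds5a-/- siPds5b, without overlap with any other condition, and Col13a1 is lower in the Pds5a-/- conditions than in WT siGLO.

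Lama3 and Lamb3, which encode an alpha and a beta chain found in epithelial basement membranes, rose after dual depletion. Lama3 was at 329, 211 and 222 normalized counts in WT siGLO, 299, 224 and 268 in Pds5a-/- siGLO, 114, 98.7 and 87.4 in Pds5b-/- siGLO and 392, 342 and 417 in Pds5a-/- siPds5b. It fell without overlap in Pds5b-/- siGLO (log2 fold change -1.35 ± 0.18, edgeR adjusted p = 3.65e-06), rose after dual depletion (log2 fold change 0.59 ± 0.16, edgeR adjusted p = 0.00414) and overlapped WT siGLO in Pds5a-/- siGLO (log2 fold change 0.046 ± 0.16, edgeR adjusted p = 0.87). Lamb3 was at 32.7, 33.8 and 34.7 in WT siGLO, 43.7, 69.2 and 62.6 in Pds5a-/- siGLO, 24.3, 36.9 and 62.1 in Pds5b-/- siGLO, 75.5, 151 and 133 in Pds5a-/- siPds5b and 115, 146 and 125 in Pds5a-/- siStag2. It rose after dual depletion (log2 fold change 1.82 ± 0.28, edgeR adjusted p = 1.32e-05) and in Pds5a-/- siStag2 (log2 fold change 1.92 ± 0.28, edgeR adjusted p = 7.68e-06), and library 1 of Pds5a-/- siPds5b was the lowest of its 3.

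The laminin chain Lama4, found in vessel and muscle basement membranes, rose from 29.2, 45.1 and 35.6 to 55.9, 73.9 and 71.3 in Pds5a-/- siGLO (log2 fold change 0.89 ± 0.24, edgeR adjusted p = 0.00736) and 76.4, 143 and 127 in Pds5a-/- siPds5b (log2 fold change 1.66 ± 0.23, edgeR adjusted p = 4.13e-06), and was at 59.1, 69.8 and 52.4 in Pds5b-/- siGLO (log2 fold change 0.73 ± 0.24, edgeR adjusted p = 0.0247). None of these libraries overlapped WT siGLO. Lama5 rose in Pds5a-/- siStag2 (log2 fold change 0.78, edgeR adjusted p = 0.00115), with 0.32 after dual depletion (edgeR adjusted p = 0.122), and the difference between these conditions was not tested. Of the calls above, that of Lama3 after dual depletion was lost without WT siGLO library 2 or 3 or Pds5a-/- siPds5b library 1 or 3 (edgeR adjusted p 0.0155 to 0.0364) and that of Lama4 in Pds5a-/- siGLO without WT siGLO library 1 or 3 or Pds5a-/- siGLO library 2 or 3 (edgeR adjusted p 0.0284 to 0.0466). Lamb2 and Lamc3 passed in no comparison with WT siGLO.

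Itga5 and Itgav, alpha chains of the fibronectin and vitronectin receptors, rose after dual depletion, and of 7 tested beta chain genes 1 passed, Itgb7, which fell. Itga5 was at 1806, 1442 and 1576 normalized counts in WT siGLO, 1719.7, 2563 and 2409.6 in Pds5a-/- siGLO, 1318, 1469 and 1426 in Pds5b-/- siGLO, 2163, 3246 and 3057 in Pds5a-/- siPds5b and 3084, 2985 and 3043 in Pds5a-/- siStag2. It rose in Pds5a-/- siPds5b (log2 fold change 0.81 ± 0.16, edgeR adjusted p = 0.000411) and Pds5a-/- siStag2 (log2 fold change 0.92 ± 0.16, edgeR adjusted p = 0.000155) without overlap with WT siGLO, and in Pds5a-/- siGLO library 1 lay within the WT siGLO range (log2 fold change 0.47 ± 0.16, edgeR adjusted p = 0.0311). Itgav, the alpha chain of vitronectin receptors, was at 830.1, 809 and 796 in WT siGLO, 761, 833 and 1209.6 in Pds5a-/- siGLO, 938, 1089.7 and 871 in Pds5b-/- siGLO and 1177, 1409 and 1504 in Pds5a-/- siPds5b. It rose after dual depletion (log2 fold change 0.75 ± 0.13, edgeR adjusted p = 6.32e-05). Neither knockout line passed, with 0.20 in Pds5a-/- siGLO and 0.25 in Pds5b-/- siGLO (edgeR adjusted p = 0.256 and 0.14). Itgb3, a beta partner of the Itgav product, was at 149, 155 and 136 in WT siGLO, 79.2, 129 and 161 in Pds5a-/- siGLO, 61.2, 87.7 and 71.8 in Pds5b-/- siGLO and 147, 219.8 and 260.1 in Pds5a-/- siPds5b. It fell in Pds5b-/- siGLO (log2 fold change -0.99 ± 0.25, edgeR adjusted p = 0.00446) without overlap and did not pass after dual depletion (log2 fold change 0.51 ± 0.23, edgeR adjusted p = 0.077). That call was lost without WT siGLO library 1, 2 or 3 or Pds5b-/- siGLO library 1 or 3 (edgeR adjusted p 0.0102 to 0.0302). The calls of Itga5 and Itgav after dual depletion held with each library left out. Itgb5, another beta partner of the Itgav product, did not pass after dual depletion (log2 fold change 0.40, edgeR adjusted p = 0.0218). It passed in Pds5a-/- siStag2 (log2 fold change 0.50, edgeR adjusted p = 0.00637), a call lost without WT siGLO library 1 or 3 or Pds5a-/- siStag2 library 1, 2 or 3 (edgeR adjusted p 0.0102 to 0.0402).

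Laminin receptor genes split. Itga6 rose from 3395, 2964 and 2945 to 4215, 3644 and 4407 in Pds5a-/- siGLO (log2 fold change 0.40 ± 0.097, edgeR adjusted p = 0.00315) and 4059, 4379 and 4418 in Pds5a-/- siPds5b (log2 fold change 0.47 ± 0.097, edgeR adjusted p = 0.000401), with 4498, 3592 and 3429 in Pds5b-/- siGLO (log2 fold change 0.31 ± 0.097, edgeR adjusted p = 0.0183), all above the WT siGLO range. Its call in Pds5a-/- siGLO was lost without WT siGLO library 2 or 3 or Pds5a-/- siGLO library 1 or 3 (edgeR adjusted p 0.0136 to 0.0292), and in Pds5b-/- siGLO it passed without WT siGLO library 1 or Pds5b-/- siGLO library 3 (edgeR adjusted p 0.00594 to 0.00968). Itga7, a laminin receptor chain known from muscle, was at 91.1, 104 and 85.2 in WT siGLO, 63.2, 56.9 and 39.0 in WT siPds5b, 81.3, 102 and 84.8 in Pds5a-/- siGLO, 19, 37.9 and 34.9 in Pds5b-/- siGLO and 45.3, 56.0 and 63.8 in Pds5a-/- siPds5b. The 3 conditions with depleted Pds5b lay below WT siGLO without overlap, and Pds5a-/- siGLO overlapped it. It fell in Pds5b-/- siGLO (log2 fold change -1.59 ± 0.25, edgeR adjusted p = 3.5e-05) and in Pds5a-/- siPds5b (log2 fold change -0.76 ± 0.23, edgeR adjusted p = 0.00968), and in WT siPds5b the log2 fold change was -0.80 ± 0.23 (unadjusted p = 0.00217, edgeR adjusted p = 0.834). Its call in Pds5b-/- siGLO held with each library left out, and that in Pds5a-/- siPds5b was lost without any one of the 6 libraries (edgeR adjusted p 0.0104 to 0.0452). Itga3 rose in Pds5a-/- siStag2 (log2 fold change 1.04, edgeR adjusted p = 0.000869) and was at 0.75 on the log2 scale in Pds5a-/- siGLO (edgeR adjusted p = 0.0134, and 8.4e-10 without the libraries numbered 1).

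After dual depletion Itgal, Itgb7, Itgae and Itga9 fell, and Itga4 and Itgam rose. Itgal, a chain known mainly from leukocytes, was at 109, 92.4 and 107 normalized counts in WT siGLO, 42.7, 65.5 and 67.5 in Pds5a-/- siGLO, 89.7, 89.7 and 76.7 in Pds5b-/- siGLO and 24, 40.4 and 18.9 in Pds5a-/- siPds5b. It fell in Pds5a-/- siGLO (log2 fold change -0.81 ± 0.22, edgeR adjusted p = 0.00657) and further after dual depletion (log2 fold change -1.89 ± 0.24, edgeR adjusted p = 7.54e-07), and the Pds5b-/- libraries lay just below WT siGLO (log2 fold change -0.27 ± 0.21, edgeR adjusted p = 0.344). In Pds5a-/- siGLO the call was lost without WT siGLO library 1 or 3 or Pds5a-/- siGLO library 1 or 2 (edgeR adjusted p 0.0125 to 0.0392), and after dual depletion it held with each library left out. Itgb7 and Itgae, whose products pair on intraepithelial lymphocytes, and Itga9, a tenascin receptor chain, fell after dual depletion by 0.65, 0.66 and 0.65 on the log2 scale (edgeR adjusted p = 0.00918, 0.00955 and 0.00722). Itgb7 went from 308, 238 and 238 to 147, 148 and 204 normalized counts, Itgae from 56.7, 74.3 and 59.5 to 42.6, 40.4 and 36.9 and Itga9 from 437, 234 and 278 to 181, 199 and 228. All 3 lay below WT siGLO without overlap, but none of these calls was stable: that of Itgb7 was lost without WT siGLO library 1, 2 or 3 or Pds5a-/- siPds5b library 1 or 2 (edgeR adjusted p 0.0118 to 0.0588), that of Itgae without any one of the 6 libraries (edgeR adjusted p 0.011 to 0.0506) and that of Itga9 without WT siGLO library 1 or Pds5a-/- siPds5b library 1 or 2 (edgeR adjusted p 0.0247 to 0.111). With library size as the sole scaling, their adjusted p-values were 0.0134, 0.0137 and 0.0104 by edgeR. Itga4, which pairs with the Itgb1 or Itgb7 product, rose from 40.4, 21.4 and 20.7 to 64.8, 61.2 and 66.8 after dual depletion (log2 fold change 1.21 ± 0.27, edgeR adjusted p = 0.000766). Itgam rose from 25.8, 25.9 and 18.2 to 97.7, 62.2 and 50.8 (log2 fold change 1.60 ± 0.29, edgeR adjusted p = 8.56e-05), but 68.7% of its exon bases are shared with the same-strand model Gm49368, so its count is uncertain.

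**Figure D5:**
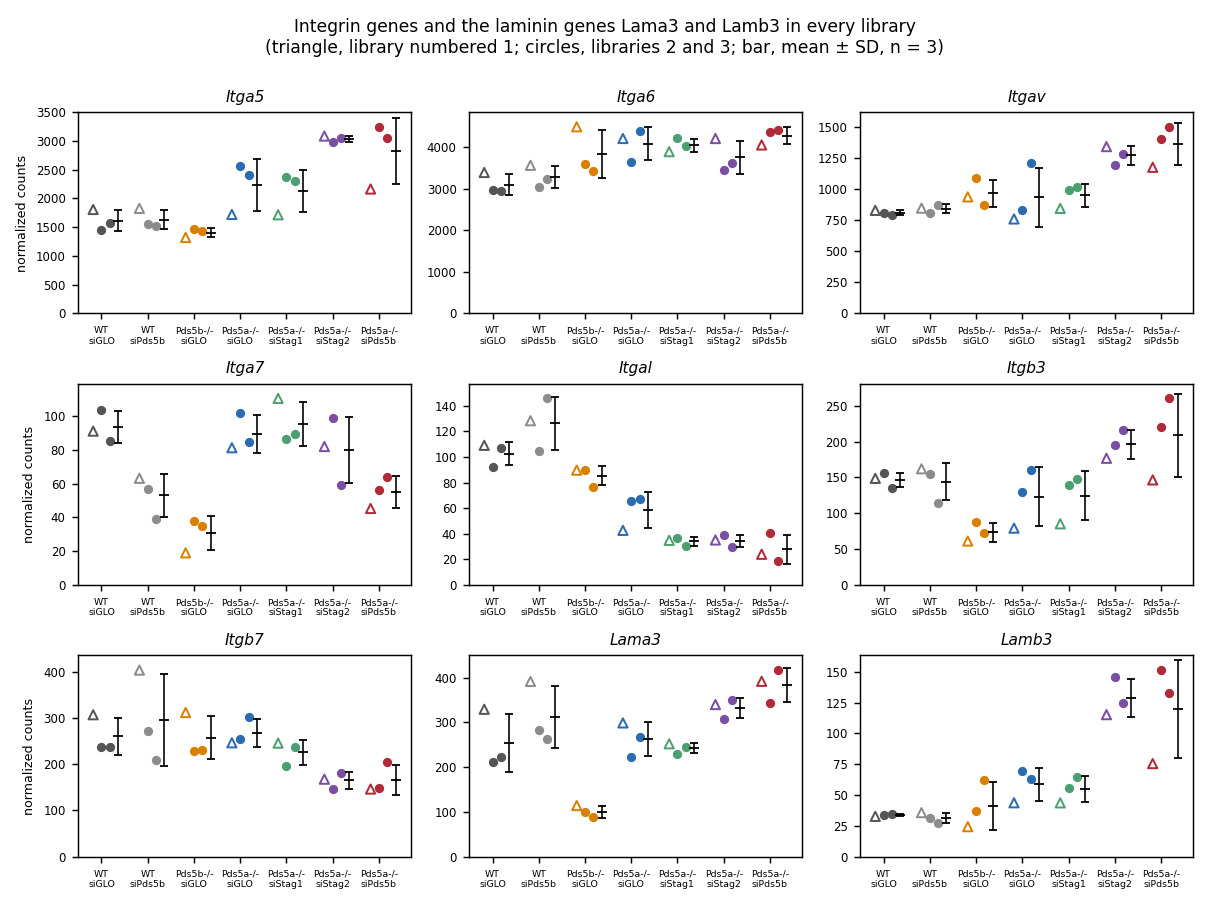
Normalized counts (linear axis) of 7 integrin genes and of Lama3 and Lamb3 in all libraries of the 7 conditions. The triangle is library 1, circles are libraries 2 and 3, and bars are mean ± SD (n = 3). Itga7, Itgb3 and Lama3 are lowest in Pds5b-/- siGLO. Itgal is lowest in Pds5a-/- cells given siPds5b, siStag1 or siStag2, and Lamb3 is highest in Pds5a-/- siPds5b and Pds5a-/- siStag2.

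The 2 single knockouts were also compared directly, since a call in 1 line and not in the other is no test of a difference. Of 66 members, 9 differed (19.2% of all genes tested), 6 higher in Pds5a-/- siGLO (9.74%) and 3 higher in Pds5b-/- siGLO (9.46%). Higher in Pds5a-/- siGLO were Lama3 (log2 difference 1.40, edgeR adjusted p = 1.92e-06), Itga7 (1.54, 5.61e-05), Col9a2 (1.44, 0.000119), Col11a2 (1.66, 0.00086), Itga5 (0.67, 0.00379) and Itga3 (0.90, 0.00421). Col9a2 and Col11a2 encode cartilage collagen chains, and they had opposite signs in the 2 lines against WT siGLO (0.76 and -0.68 for Col9a2, 0.93 and -0.74 for Col11a2) without passing there. Higher in Pds5b-/- siGLO were Itgb1 (log2 difference -0.74, edgeR adjusted p = 6.06e-08, where the chromosome 8 median was -0.48), Col2a1 (-0.68, 0.00137), the main cartilage collagen, and Lamc1 (-0.41, 0.00693). The calls of Lama3, Itga7, Col9a2 and Itgb1 held with each library left out. The call of Col2a1 was lost without Pds5b-/- siGLO library 2 (edgeR adjusted p = 0.0126) and that of Col11a2 without Pds5a-/- siGLO library 2 (edgeR adjusted p = 0.0132). The call of Lamc1 was lost without Pds5a-/- siGLO library 2 or 3 or Pds5b-/- siGLO library 1 or 2 (edgeR adjusted p 0.0104 to 0.0714). Itga3 was lost without Pds5a-/- siGLO library 2 or 3 or Pds5b-/- siGLO library 1, 2 or 3 (edgeR adjusted p 0.0133 to 0.0256), and Itga5 without Pds5a-/- siGLO library 2 or 3 or Pds5b-/- siGLO library 1, 2 or 3 (edgeR adjusted p 0.012 to 0.0289). The count was 5 without Pds5a-/- siGLO library 2 or without Pds5b-/- siGLO library 2, and 21 without the libraries numbered 1. Col4a1 and Col4a2, called in different sets of lines, did not pass this test (log2 difference -0.62 ± 0.25, edgeR adjusted p = 0.0691, and -0.37 ± 0.16, edgeR adjusted p = 0.0923). Both are also on chromosome 8. Set against its median of -0.48, their values were -0.15 and 0.11, with 66.4% and 37.2% of its tested genes higher.

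To ask what PDS5B depletion adds, Pds5a-/- siPds5b was compared with Pds5a-/- siGLO. Of 66 members 9 passed (7.59% of all genes tested), 8 higher (4%) and 1 lower (3.59%). Col6a5 (log2 fold change 1.96 ± 0.30, edgeR adjusted p = 0.000173) and Col23a1 (log2 fold change 1.68 ± 0.25, edgeR adjusted p = 5.86e-05) rose most, and their calls held with each library left out. Col6a2 (0.96, edgeR adjusted p = 0.00378), Col27a1 (0.66, 0.00334), Lamb3 (1.02, 0.00976), Itga1 (1.1, 0.00821), a collagen receptor chain, Itgav (0.54, 0.00523) and Itgb1 (0.33, 0.00267) were also higher, on the log2 scale, and Itgal was lower (-1.08, 0.00362). These 7 calls were lost when single libraries were left out. Col6a2 was lost without Pds5a-/- siGLO library 1 or 2 or Pds5a-/- siPds5b library 1 or 3 (edgeR adjusted p 0.0124 to 0.0267) and Col27a1 without Pds5a-/- siGLO library 2 or 3 or Pds5a-/- siPds5b library 2 or 3 (edgeR adjusted p 0.0115 to 0.025). Lamb3 was lost without Pds5a-/- siGLO library 1, 2 or 3 or Pds5a-/- siPds5b library 2 or 3 (edgeR adjusted p 0.0166 to 0.0709) and Itga1 without any one of the 6 libraries (edgeR adjusted p 0.0124 to 0.0418). Itgav was lost without Pds5a-/- siGLO library 1 or 2 or Pds5a-/- siPds5b library 2 or 3 (edgeR adjusted p 0.0235 to 0.0382), Itgb1 without Pds5a-/- siGLO library 1 or Pds5a-/- siPds5b library 2 (edgeR adjusted p 0.0238 to 0.0245) and Itgal without Pds5a-/- siGLO library 2 or 3 or Pds5a-/- siPds5b library 1 or 3 (edgeR adjusted p 0.0192 to 0.0291). The count ranged from 3 to 8 over these fits, 3 being without Pds5a-/- siGLO library 2 or Pds5a-/- siPds5b library 3, 4 without Pds5a-/- siGLO library 1 or Pds5a-/- siPds5b library 2, and 5 without Pds5a-/- siGLO library 3. Blocking on replicate number, 13 members passed, with Col6a1 (edgeR adjusted p = 0.00122), Lama3 (0.00266), Itgb3 (0.00698) and Itgb7 (0.00608) added.

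In WT cells, siPds5b changed 0 of 66 members by edgeR at an adjusted p under 0.01 (0.00668% of all genes tested), 0 by DESeq2, and 5 at an unadjusted p under 0.05 (4.22% of all genes). The interaction of genotype and siPds5b, which asks whether the siPds5b effect differs between Pds5a-/- and WT cells, called 0 members by edgeR (1.48% of all genes tested), 16 at an unadjusted p under 0.05 (17.3% of all genes) and 2 by DESeq2. Blocking on replicate number let 2 pass, Col6a5 (log2 interaction 1.75, edgeR adjusted p = 0.000663, against 0.0397 without the block) and Itgal (-1.38, 0.00932, against 0.0142). Without WT siPds5b library 1 the call of Col6a5 also passed (edgeR adjusted p = 0.00474). The call of Itgal passed without Pds5a-/- siGLO library 1 or Pds5a-/- siPds5b library 2 (edgeR adjusted p 0.00352 to 0.00647) and that of Itgav without Pds5a-/- siGLO library 3 (edgeR adjusted p = 0.00595). siStag1 in Pds5a-/- cells changed 0 of 66 members against Pds5a-/- siGLO by edgeR (0.0936% of all genes tested), 0 by DESeq2 and 6 at an unadjusted p under 0.05 (10.7% of all genes). siStag2 changed 0 by edgeR (2.24% of all genes tested), 2 by DESeq2 and 15 at an unadjusted p under 0.05 (25.3% of all genes). Blocking on replicate number, which pairs these libraries, let 2 pass, Lamb3 (edgeR adjusted p = 0.00146, against 0.0112) and Itgb1 (0.00971, against 0.0183). Without Pds5a-/- siGLO library 3, Itgav and Itgb1 passed after siStag2 (edgeR adjusted p = 0.001 and 0.00842).

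The genes that work with the members were grouped into 4 lists, whose counts stand beside the 17.8%, 18.2% and 32% of all genes called in Pds5a-/- siGLO, in Pds5b-/- siGLO and after dual depletion. Of 23 tested matrix genes, 5 rose and 3 fell in Pds5a-/- siGLO, 1 rose and 4 fell in Pds5b-/- siGLO, and 6 rose and 2 fell in Pds5a-/- siPds5b. These were 34.8%, 21.7% and 34.8% of the list, near the share of all genes in Pds5b-/- siGLO and Pds5a-/- siPds5b. After dual depletion Thbs2, a matricellular thrombospondin, rose from 35.2, 51.8 and 38.0 to 285, 274 and 311 normalized counts (log2 fold change 2.81 ± 0.24, edgeR adjusted p = 2.53e-09), and Ntn1, the guidance cue netrin, fell from 1181, 1709 and 1889.5 to 139, 151 and 209 (log2 fold change -3.26 ± 0.17, edgeR adjusted p = 6e-12). Bgn rose (log2 fold change 1.96, edgeR adjusted p = 0.00621) and Vcan, another proteoglycan, fell (log2 fold change -1.23, edgeR adjusted p = 2.21e-06). Of 31 genes of collagen processing, 4 rose and 5 fell in Pds5a-/- siGLO, 2 rose and 5 fell in Pds5b-/- siGLO, and 9 rose and 6 fell after dual depletion (29%, 22.6% and 48.4% of the list). The cross-linking oxidases Lox and Loxl4 rose after dual depletion (log2 fold changes 2.95 and 2.95, edgeR adjusted p = 0.000396 and 8.78e-08), while Loxl3, of the same family, and Pcolce2, which enhances procollagen cleavage, fell (log2 fold changes -1.82 and -1.17, edgeR adjusted p = 0.00167 and 4.39e-09). Lox held 4, 5 and 9 reads in WT siGLO, so the size of its fold is uncertain.

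Of 34 genes of the integrin adhesion complex, 9 rose and 2 fell in Pds5a-/- siGLO, 7 rose and 5 fell in Pds5b-/- siGLO, and 13 rose and 5 fell after dual depletion (32.4%, 35.3% and 52.9% of the list). Fermt1, an integrin-activating kindlin, rose from 14.6, 20.3 and 17.4 to 140.3, 208 and 210.3 normalized counts (log2 fold change 3.42 ± 0.24, edgeR adjusted p = 8.82e-11), and Tns4 also rose (log2 fold change 2.97, edgeR adjusted p = 2.3e-08). Parvb, a parvin that binds integrin-linked kinase, fell from 1508, 1027 and 1015 to 411, 365 and 485 (log2 fold change -1.49 ± 0.15, edgeR adjusted p = 1.36e-07), and Tns1 fell (log2 fold change -0.69, edgeR adjusted p = 0.00554). Of 23 matrix proteases and inhibitors, 9 rose and 4 fell in Pds5a-/- siGLO, 7 rose and 2 fell in Pds5b-/- siGLO, and 11 rose and 4 fell after dual depletion (56.5%, 39.1% and 65.2% of the list). Mmp9, a gelatinase, rose from 60.2, 49.6 and 44.7 to 394, 667 and 647 (log2 fold change 3.46 ± 0.21, edgeR adjusted p = 1.44e-11), and Plau, the urokinase that activates plasminogen, rose from 18, 13.5 and 15.7 to 101, 206 and 150.5 (log2 fold change 3.25 ± 0.36, edgeR adjusted p = 1.64e-07). Timp4, an inhibitor of matrix metalloproteinases, and Mmp19 fell (log2 fold changes -2.95 and -1.94, edgeR adjusted p = 0.000367 and 0.000773). After dual depletion Timp4 held 3, 2 and 4 reads and Mmp19 held 5, 4 and 4, so the size of these folds is uncertain. The median log2 fold changes of the matrix, processing, adhesion and protease lists after dual depletion were 0.36, 0.14, 0.23 and 0.61.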

How the data were processed

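Poly-A RNA-seq of 21 libraries was analysed. The authors deposited raw counts per gene, after alignment with STAR to mm10, and the counting tool, annotation and strand setting are not given in the sources used here. From these counts, genes were filtered with filterByExpr, scaled by TMM and tested with the quasi-likelihood F-test of edgeR 4.0.16 (R 4.3.3) in 1 fit over all 7 conditions. P-values were Benjamini-Hochberg adjusted over all 14963 genes tested, and an adjusted p under 0.01 was called. Depth was 17311090 to 23989198 counts per library, median 19628146, and limits the precision of low genes. The procedure was run on simulated data with independent libraries. These had no difference of the libraries numbered 1, no pairing and no shift of a chromosome, so they cannot test those features. Alternatives were DESeq2 1.42.0, other scaling, no filter, a fit to the compared conditions alone, a block on replicate number, and each library left out. Leaving out all libraries numbered 1 was chosen after seeing the data. Members, marker and partner lists were chosen with earlier results of these data known. Members named with values in every library were those called in Pds5a-/- siGLO, Pds5b-/- siGLO or Pds5a-/- siPds5b against WT siGLO whose log2 CPM averaged 1 or more, and always Lama1, Lamb1, Lamc1, Col4a1, Col4a2, Itgb1, Itga5, Itga6 and Itgav. Others were named by fold change only, and up to 2 genes that rose and 2 that fell most after dual depletion from each partner list. Same-numbered libraries were taken as paired where every correlation of deviations from condition means was over 0.1: WT siPds5b against WT siGLO (0.276 to 0.45), and siPds5b (0.271 to 0.598), siStag1 (0.122 to 0.52) and siStag2 (0.124 to 0.185) against Pds5a-/- siGLO. The pairing comes from the data, since the labels give only a number. The values of 1 member are not reported here.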

Additional observations from a re-analysis of the deposited data

How the results depend on the processing

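With each library left out in turn, the number of members called was 11 to 20 in Pds5a-/- siGLO, 12 to 16 in Pds5b-/- siGLO, 25 to 30 in Pds5a-/- siPds5b, 10 to 19 in Pds5a-/- siStag1 and 23 to 25 in Pds5a-/- siStag2 against WT siGLO, 3 to 8 for siPds5b and 0 to 2 for siStag2 against Pds5a-/- siGLO, 5 to 12 between the knockout lines and 0 to 1 for the interaction. Without the 7 libraries numbered 1, the count was 26 in Pds5a-/- siGLO against WT siGLO, 21 between the knockout lines, 2 for siStag2 against Pds5a-/- siGLO and 2 for the interaction, and the log2 fold change of Lama1 in Pds5a-/- siPds5b turned to -0.35, with -0.55 to 0.27 when each library was left out in turn. The cause was not tested. Fitting only the conditions compared gave 3 calls for siPds5b against Pds5a-/- siGLO, where fewer samples estimate the spread. For siStag2 against Pds5a-/- siGLO, DESeq2 gave 2 calls and no filter gave 1, and DESeq2 gave 2 for the interaction. With the replicate number as a block, 2 members passed for siStag2 and 13 for siPds5b against Pds5a-/- siGLO, and 2 for the interaction. Where the numbers did not pair the libraries (lowest correlation -0.0514 to 0.0606), the block gave 15 between the knockout lines, 22 in Pds5a-/- siGLO, 24 in Pds5b-/- siGLO, 38 in Pds5a-/- siPds5b, 27 in Pds5a-/- siStag1 and 29 in Pds5a-/- siStag2. With library size only, the share of interaction calls over all genes that were higher went from 39.6% to 50.2%. Genes with few reads, such as Col25a1, are limited by depth.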
